A study of Mus musculus with 10 samples.

Results

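The H/ACA box small nucleolar RNA (snoRNA) genes are the genes whose GENCODE mouse vM21 symbol begins with Snora and a digit. They numbered 42 of the 55487 genes in each deposited table. All 42 were annotated as snoRNA, they lay on 20 chromosomes, and 3 were on chromosome X. They carried 40 symbols, because Snora43 and Snora16a each named a pair of nested records. The annotated lengths ran from 121 to 205 nt with a median of 132.5 nt.

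The study used E14, a line of mouse embryonic stem cells, for 10 samples in 6 groups. The RNA-seq group had 3 replicates, and the 7 samples that mapped R-loops were not analysed here. The cells were kept with LIF, 15% serum, 3 µM of a GSK inhibitor and 1 µM of a MEK1/2 inhibitor. They carried no further genotype or treatment in the labels, so no difference between conditions was tested. No label says whether the replicates came from separate cultures, and p-values measure only the spread between these samples, which may be technical. The RNA was total RNA depleted of ribosomal RNA.

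H/ACA snoRNAs are non-coding RNAs of the nucleolus that fold into hairpins joined by a hinge, the H box (ANANNA), and end shortly after the triplet ACA. Each pairs with ribosomal RNA and places a chosen uridine before dyskerin, which turns it into pseudouridine. Most vertebrate H/ACA snoRNAs are cut out of introns of other genes, many of which encode ribosomal proteins or serve as non-coding hosts. Snora73, also called U17, is an exception in function, since it is required for the cleavage of the ribosomal RNA precursor.

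The sequences that carried the largest shares of the counts, together with the members that differed most between replicates, are shown 5′ to 3′ with GRCm38 coordinates. Capitals mark the ANANNA match nearest the middle and an ACA ending 3 bases before the 3′ end. The first pair are the near-identical Snora73 genes, at chr4:132352775-132352979 and chr4:132352322-132352526 on the minus strand. Snora23 (chr7:110046364-110046547, plus) and Snora81 (chr16:23110756-23110933, plus) came next by counts. Snora74a, at rank 5 by mean CPM, is not shown, and neither of the marked matches was found in it. Snora52 (chr7:141448803-141448939, plus) had the highest count of the short members. Snora65 (chr2:32963291-32963420, plus) and Snora78 (chr17:24719676-24719803, minus) had the lowest p-values in the test of spread between replicates. Where a line has a single run of capitals, these letters did not have the other match in its window.
Snora73a: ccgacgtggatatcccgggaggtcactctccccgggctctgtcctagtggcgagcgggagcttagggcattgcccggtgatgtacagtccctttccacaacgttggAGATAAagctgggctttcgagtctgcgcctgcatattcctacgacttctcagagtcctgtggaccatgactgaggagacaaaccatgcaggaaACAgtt
Snora73b: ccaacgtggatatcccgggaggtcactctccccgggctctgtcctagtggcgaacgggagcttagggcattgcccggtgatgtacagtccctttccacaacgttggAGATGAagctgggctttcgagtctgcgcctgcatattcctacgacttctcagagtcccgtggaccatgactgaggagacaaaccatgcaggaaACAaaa
Snora23: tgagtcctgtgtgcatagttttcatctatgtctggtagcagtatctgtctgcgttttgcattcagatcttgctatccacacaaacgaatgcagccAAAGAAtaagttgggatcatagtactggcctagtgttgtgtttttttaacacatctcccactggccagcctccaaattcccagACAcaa
Snora81: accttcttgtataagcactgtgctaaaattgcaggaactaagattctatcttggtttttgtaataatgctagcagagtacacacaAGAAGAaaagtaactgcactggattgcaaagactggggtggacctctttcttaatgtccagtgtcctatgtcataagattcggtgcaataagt
Snora52: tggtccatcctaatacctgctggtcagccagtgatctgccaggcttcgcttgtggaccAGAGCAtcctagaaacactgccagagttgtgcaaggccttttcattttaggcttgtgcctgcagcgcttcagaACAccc
Snora65: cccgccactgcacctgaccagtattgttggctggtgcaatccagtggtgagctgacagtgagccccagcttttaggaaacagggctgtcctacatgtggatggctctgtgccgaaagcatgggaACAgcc
Snora78: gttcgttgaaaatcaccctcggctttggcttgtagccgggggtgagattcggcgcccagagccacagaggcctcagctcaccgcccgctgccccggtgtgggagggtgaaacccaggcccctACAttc

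The ACA triplet stood exactly 3 bases before the annotated 3′ end in 35 of 42 members (83.3%). Among 3050 other annotated transcripts of 120 to 210 nt the share was 7.90%, and in the 99 C/D box snoRNA genes (symbols beginning Snord), the other large class of nucleolar guide RNA, it was 0 of 99. Within the last 10 bases ACA was found in 40 of 42 members (95.2%), against 28.1% of the other transcripts and 8.08% of the C/D box genes. An ANANNA match in the middle of the sequence (the central 1 of 3 equal stretches) was present in 39 of 42 members (92.9%), in 67.8% of the other transcripts and in 49.5% of the C/D box genes. Only the RNA strand was searched, and a match is a description of the letters, not a mapped site. The label H/ACA therefore held for the 3′ end of most annotated sequences, while the H box pattern was common in other transcripts of this length.

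The libraries held 5787357 to 11420425 estimated counts, so that 3 counts, the upper limit that a count of 0 allows, corresponded to 0.263, 0.464 and 0.518 CPM (the estimated count scaled to a common library total) in replicates 1, 2 and 3. The 5 markers of pluripotent stem cells were all detected, at mean TPM (an abundance scaled by effective length) of 32.9 to 183. Of 6 fibroblast markers only Thy1 was detected, at 2.50 TPM. Col3a1 and Postn were at 0 in every replicate, and the 6 markers summed to 1.38 to 3.37 TPM. Of 7 markers of differentiated lineages 3 were detected (Sox1, Eomes and Gata4), none reached a mean of 1 TPM, and the 7 summed to 1.66 to 2.88 TPM. Intervals and limits cover counting error only. In bulk samples fewer cells of a type and less RNA per cell cannot be told apart.

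Most H/ACA box genes gave counts in these cells. More than 3 counts in every replicate, the criterion of detection used here, was met by 35 of 42 members. The background was 26.3% of all genes, 4.66% (124 of 2660) of the other genes of 120 to 210 nt and 23.2% of the C/D box genes (23 of 99). A CPM of at least 1 in every replicate was met by 33 members, against 24.1% of all genes.

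The members that were not detected were few and are named to account for all 42, having been chosen after their values were seen. At 0 in every replicate were 6 records, Snora19, Snora2b, Snora35, Snora36b, the 127 nt record of Snora43 and the 137 nt record of Snora16a. Snora47 had 4, 2 and 12 counts. The 127 nt record of Snora43 lies inside the 139 nt record, which took 500, 345 and 349 counts. In the same way the 136 nt record of Snora16a took 56.3, 37.0 and 55.8 counts and its 137 nt partner none. The zeros of these 2 records are values of an estimator that divides shared reads, since each shares at least 127 nt with its partner. Snora35 lies in an intron of Htr2c, a serotonin receptor gene, which also had 0 counts in every replicate. Snora19 has an identical copy, Gm23658, and both were at 0.

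The H/ACA box genes together took 0.192, 0.235 and 0.346% of all counts in replicates 1, 2 and 3. The Wilson 95% intervals were 0.189 to 0.195%, 0.231 to 0.239% and 0.342 to 0.351%. The mean was 0.258% ± 0.0797 (SD, n = 3). The intervals of the 3 replicates did not overlap, so the spread between libraries exceeded counting error. On the TPM scale the share was 2.24, 2.58 and 2.56%, a mean of 2.46% ± 0.189 (SD, n = 3). The scales differ because TPM divides by an effective length, which was 5.77 to 74.6 nt for members in the 3 tables. The median effective length of members was 13.5, 10.1 and 16.1 nt in replicates 1, 2 and 3.

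Counts were concentrated in 5 long members, Snora73a, Snora73b, Snora23, Snora81 and Snora74a, which have 178 to 205 nt. They held 80.0, 83.0 and 80.0% of the member counts in replicates 1, 2 and 3, and 47.2, 49.2 and 49.2% of the member TPM. The other 37 members are shorter than 150 nt, and their summed CPM was 384, 399.8 and 694. Without the 5 long members the class held 0.0493% of counts. The plot of CPM by member shows the break between the 5 long members, each at a mean of at least 144.7 CPM, and the other 30 detected members, whose means did not exceed 68.5 CPM.

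**Figure D1:**
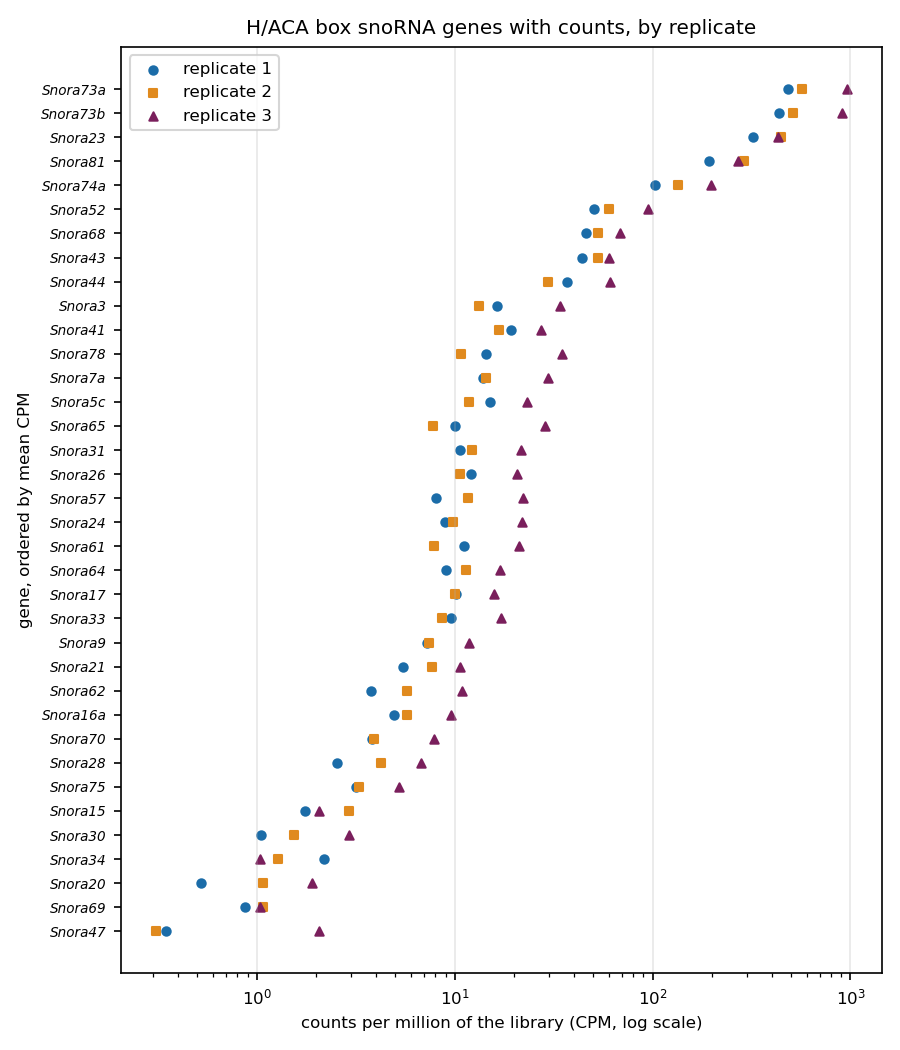
CPM on a log axis for each of the 36 H/ACA box genes with any count, with a point per replicate, in order of the mean. Snora73a and Snora73b lead at means of 674 and 618 CPM, Snora47 is lowest at 0.911 CPM, and the replicate 3 point is the highest for most members.

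Snora73a and Snora73b, the U17 genes, had the highest values of the class. Snora73a (ENSMUSG00000064387) had 486, 571 and 965 CPM in replicates 1, 2 and 3, a mean of 674 ± 256 (SD, n = 3). Snora73b (ENSMUSG00000065353) had 433, 511 and 908 CPM, a mean of 618 ± 255 (SD, n = 3). In both the highest value was that of replicate 3, and replicates 1 and 2 lay close together. Their sequences were 98.0% identical, with 4 mismatches over 202 aligned bases, and the ratio of Snora73a to Snora73b counts was 1.12, 1.12 and 1.06. Reads that match both were divided by the estimator, so their separate values are uncertain. Their sum, which does not depend on that division between them, was 919, 1082 and 1874 CPM. As a pair they made up 47.9, 46.1 and 54.1% of the member counts. An antisense record, Gm17300, spans both, and whether the counting used strand is not given in the sources used here.

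Snora23 and Snora81 followed. Both are guides for pseudouridines of the large ribosomal RNA. Snora23 (ENSMUSG00000064451) had 320, 444 and 430.1 CPM, a mean of 398 ± 67.7 (SD, n = 3). Snora81 (ENSMUSG00000087935) had 194, 289.5 and 269 CPM, a mean of 251 ± 50.3 (SD, n = 3). Both were lowest in replicate 1, as were the Snora73 genes. They were highest in replicate 2 in plain CPM and in replicate 3 after TMM scaling. The share of member counts held by this pair was 26.8, 31.2 and 20.2%. Snora23 also has an antisense record, 1600010M07Rik. Snora74a, also called U19, had 103, 134 and 197 CPM (mean 145 ± 48.0, SD, n = 3), with the highest value in replicate 3.

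Because these genes differ in length, their levels were compared per kilobase of annotated length. Snora73a had 3288 ± 1248 CPM per kb (SD, n = 3), Snora73b 3012 ± 1243, Snora23 2164 ± 368, Snora81 1409 ± 283 and Snora74a 738 ± 245. The order of the first 4 was the same in TPM, at means of 3328, 3036, 2807 and 1971. On both scales the intervals of mean ± SD of the first 3 overlapped. Within libraries the order of these 3 held in every replicate in CPM per kb, but not in TPM. Snora74a fell to rank 9 in TPM at a mean of 816, below Snora68 (1601), Snora52 (1516) and Snora44 (1276), which are short.

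Among the short members, Snora52, Snora68, Snora43 and Snora44 stood highest. Snora52, which lies in the ribosomal protein gene Rplp2, had 50.8, 60.04 and 94.6 CPM (mean 68.5 ± 23.1, SD, n = 3). Snora68 had 45.9, 53.0 and 68.6 CPM (mean 55.8 ± 11.6). The 139 nt record of Snora43 had 43.8, 53.3 and 60.3 CPM (mean 52.5 ± 8.30). Each of these ranked the replicates the same way, with replicate 1 lowest and replicate 3 highest. Snora44, in the non-coding host Snhg12, had 37.1, 29.8 and 61.2 CPM (mean 42.7 ± 16.4), with replicate 2 lowest. The intervals of mean ± SD of these 4 neighbours overlapped in order, and their lengths were close (129 to 139 nt). Within libraries Snora52 was nonetheless the highest of the 4 in every replicate.

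A further group of 14 short members had a mean of at least 10 CPM, led by Snora3, Snora41, Snora78, Snora7a, Snora5c and Snora65. Snora3, in Rpl27a, had 16.4, 13.3 and 34.0 CPM, and Snora41, in Eef1b2, had 19.2, 16.9 and 27.5 CPM. Snora78 had 14.4, 10.8 and 35.1 CPM, and Snora65, in Rpl12, had 10.1, 7.74 and 28.8 CPM. In all 4 replicate 3 was the highest and replicate 2 the lowest. Snora7a, in Rpl32, had 13.9, 14.4 and 29.6 CPM, and Snora5c, in Tbrg4, had 15.1, 11.8 and 23.2 CPM. The means of these 6 members ran from 15.5 to 21.2 CPM, with SDs of 5.58 to 13.1 CPM. These SDs include the rise in replicate 3 that the 6 share, so they do not measure differences within a library. Snora3, for example, was above Snora65 in every replicate.

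The lowest detected members were close to the limit of detection. Snora69 had 0.876, 1.08 and 1.04 CPM (10, 7 and 6 counts) and Snora20 0.525, 1.08 and 1.90 CPM. Snora34 had 2.19, 1.28 and 1.04 CPM (25, 8.26 and 6 counts). It was the only detected member with a lower CPM in replicate 3 than in replicate 1. Snora30 had 1.05, 1.55 and 2.94 CPM and Snora15 1.75, 2.94 and 2.07 CPM. Differences between the replicates of these 5 genes rest on few reads.

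Length and base composition were set against the counts as a description across genes, which share their libraries and are not independent replicates. Over the 35 detected members the rank correlation (Spearman) of mean CPM with length was 0.401, and over the 30 detected members under 150 nt it was 0.049. Detected members under 150 nt had a median of 12.9 CPM, and 74 other detected genes from 120 to under 150 nt had 6.83 CPM. At 178 to 210 nt the medians were 398 CPM for the 5 members and 101 CPM for 20 other detected genes. The difference between long and short genes was thus seen in the other genes too, while within the short members length did not order the counts.

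**Figure D2:**
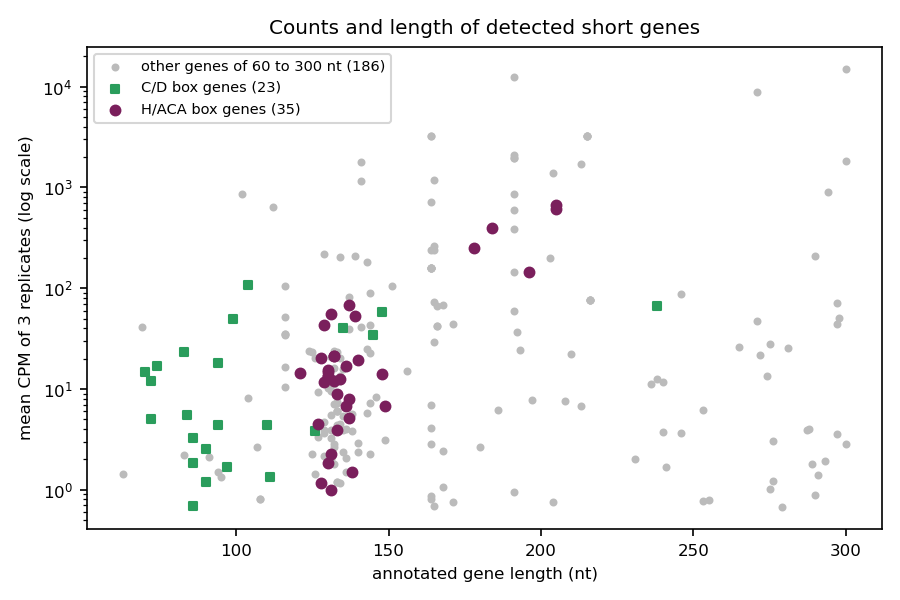
Mean CPM over 3 replicates (log axis) against annotated length in nt for detected genes of 60 to 300 nt, with 35 H/ACA box genes, 23 C/D box genes and 186 other genes as points. The 5 H/ACA box genes of at least 178 nt sit apart at the top right, and the 30 shorter ones cover 0.998 to 68.5 CPM within a narrow span of length.

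Among members under 150 nt, those with more G and C had higher counts. The rank correlation of mean CPM with GC content was 0.672 (n = 30 genes), and it was 0.636, 0.610 and 0.727 in replicates 1, 2 and 3. Over all 35 detected members it was 0.507. In the 74 other detected genes from 120 to under 150 nt it was -0.198. The members' GC content ran from 33.3 to 64.1% with a median of 48.5%. Snora78, at 64.1% GC, had a mean of 20.1 ± 13.1 CPM, and Snora15, at 34.4%, had 2.25 ± 0.614 CPM.

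**Figure D3:**
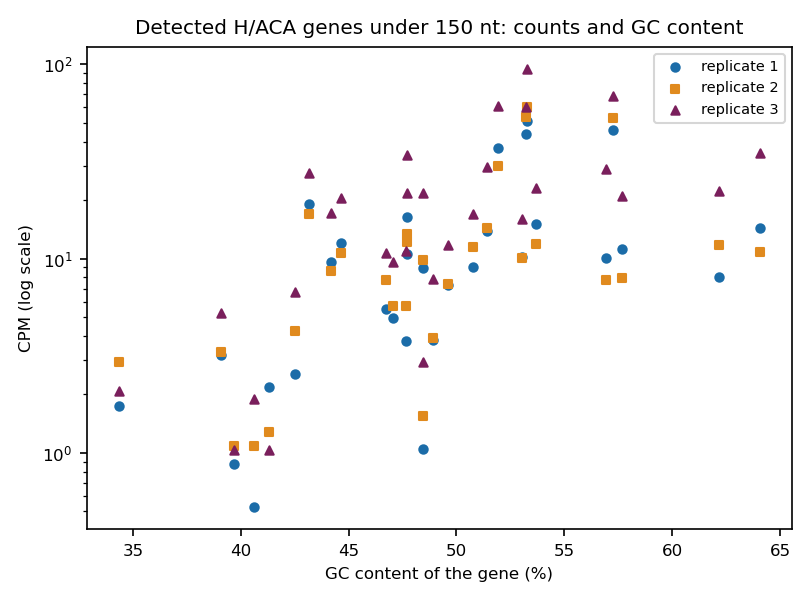
CPM (log axis) against GC content in percent for the 30 detected H/ACA box genes under 150 nt, with a point per replicate. Counts are higher toward the right in each replicate, with rank correlations of 0.636, 0.610 and 0.727 as descriptions across genes.

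The closest class of RNA by function is the C/D box snoRNA, which guides ribose methylation in place of pseudouridylation. The 99 C/D box genes summed to 328, 377 and 735 CPM. The log2 ratio of summed counts of H/ACA to C/D box genes was 2.55, 2.64 and 2.24, a mean of 2.48 ± 0.21 (SD, n = 3). It was positive in 3 of 3 replicates (exact two-sided sign-flip permutation test, p = 0.25, the smallest p that 3 replicates allow). On the TPM scale the direction turned, to a mean log2 ratio of -0.34 (-0.024, -0.12 and -0.89 in replicates 1, 2 and 3). Without the 5 long H/ACA box genes the log2 ratio of counts was 0.077 ± 0.15 (SD, n = 3), at 0.23, 0.086 and -0.082. The C/D box genes were shorter, with a median of 84 nt (64 to 238 nt), and 66 of 99 had an effective length of 0 in some replicate, where no H/ACA box gene did. Among genes of 120 to 210 nt alone the log2 ratio of counts was 4.26 ± 0.072 (SD, n = 3). That window keeps every H/ACA box gene and drops the C/D box genes outside it. Only the C/D box sum became smaller, so this ratio does not compare the whole classes. For the median CPM of detected genes in place of the sum the log2 ratio was 1.39 ± 0.19. The sum of counts thus depended on the 5 long members and on the scale, while the median detected H/ACA box gene had the higher CPM in 3 of 3 replicates.

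Some H/ACA box genes varied between replicates more than most genes did, as did other short genes. The test of spread between replicates was edgeR's goodness-of-fit test, which asks whether a gene varied more than genes of like abundance, with Benjamini-Hochberg adjustment over 12577 genes. It called 9 of 31 members tested at an adjusted p under 0.05, and 24 of 31 had an unadjusted p under 0.05. Over all genes tested 1.84% were called (232 of 12577) and 6.96% had an unadjusted p under 0.05. Among other genes of 100 to 250 nt the test called 43 of 130, and among C/D box genes 9 of 17. The members' count was far above the background of all genes. However, the share called was no higher in members than in the other short genes or the C/D box genes.

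The called members included guides in ribosomal protein genes and in non-coding hosts. Snora65 had the lowest adjusted p (1.31e-05, edgeR), with a log2 deviation of 1.25 in replicate 3 from its mean over replicates. Snora78 followed (1.11 in replicate 3, adjusted p = 8.39e-05). Snora3, Snora57, Snora24, Snora61, Snora7a, Snora44 and Snora62 were called at adjusted p of 0.00362, 0.00705, 0.0110, 0.0175, 0.0210, 0.0291 and 0.0441. In all 9 the highest CPM was that of replicate 3. Snora62, also called E2, had 3.77, 5.72 and 10.9 CPM, and Snora57 had 8.05, 11.7 and 22.3 CPM. Snora24 had 8.91, 9.78 and 21.8 CPM, and Snora61 had 11.2, 7.90 and 21.1 CPM.

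The 5 long members and Snora52 did not pass this test. Snora73b had an adjusted p of 0.0544, Snora52 0.0689, Snora73a 0.103 and Snora74a 0.119 (edgeR), with log2 deviations in replicate 3 of 0.75, 0.63, 0.70 and 0.61. Snora23 and Snora81 had an adjusted p of 1.00, with log2 deviations in replicate 3 of 0.24 and 0.24. With a common in place of a trended dispersion 10 of 31 were called (1.86% of all genes). That fit called Snora73a and Snora73b (adjusted p of 0.0391 and 0.0180, edgeR) and not Snora44 (0.0674). Without replicate 3 no member was called (0 of 32 by edgeR, 0.683% of all genes), and 3 had an unadjusted p under 0.05 (3.75% of all genes). Without replicate 1 the test called 4 of 31 (0.709% of all genes), namely Snora65, Snora78, Snora3 and Snora61. Without replicate 2 it called 1 of 31, Snora65 (0.474% of all genes). With no filter on low counts 5 of 36 were called (1.19% of all genes). With an offset that removed the trend of each library with gene length, 0 of 31 were called by edgeR (1.47% of all genes). There 2 members, Snora65 and Snora78, had an unadjusted p under 0.05 (6.39% of all genes).

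The log2 deviation of TMM-scaled CPM from each gene's mean over replicates had a median of -0.41, -0.25 and 0.69 in replicates 1, 2 and 3 over the 31 members tested. Replicate 3 was the highest in 30 of 31 members, Snora15 being the exception, against 40.6% of all genes tested and 90.9% of other genes of 100 to 200 nt (100 of 110). The members ranged from 0.029 to 1.25 in replicate 3. The median in replicate 3 was 0.63 in the other genes of 100 to 200 nt (C/D box genes of that length included), 0.85 in the 17 C/D box genes tested and 0.0025 over all genes. The 5 long members had a median of 0.61 and those under 150 nt 0.70. After the length correction the members' median was 0.064, and replicate 3 was the highest in 14 of 31 (45.2%). The background after that correction was near this share, at 41.4% of all genes tested and 36.4% of other genes of 100 to 200 nt. Effective lengths of members were longest in replicate 3, as given above. The correction used gene length and not effective length, and the part of fragment length in the shift was not tested.

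**Figure D4:**
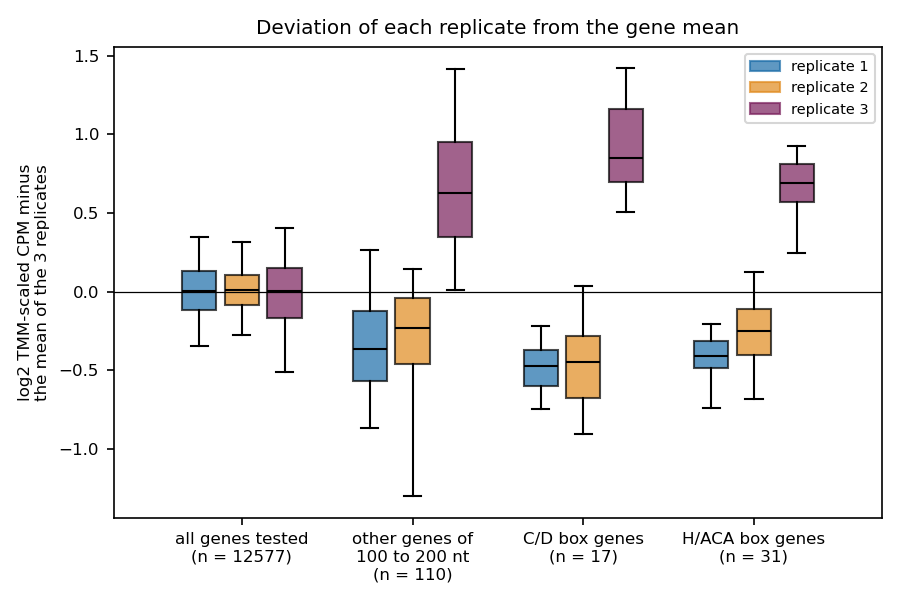
Log2 deviation of TMM-scaled CPM from each gene's mean over replicates, by replicate, for the 31 H/ACA box genes tested, the 17 C/D box genes, the 110 other genes of 100 to 200 nt and all 12577 genes. Boxes show quartiles and medians with whiskers from the 5th to the 95th percentile, and all 3 short groups sit high in replicate 3 while all genes centre near 0.

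In plain CPM the median ratio of replicate 3 to replicate 1 was 1.88 over the 35 detected members, and 34 of 35 were higher in replicate 3. The ratio of replicate 3 to replicate 2 had a median of 1.69, with 30 of 35 higher. All detected genes had medians of 0.882 and 0.894. The coefficient of variation of a detected member's CPM was 10.9 to 74.2% with a median of 38.0%. The order of members was nonetheless alike, with rank correlations between replicates of 0.969, 0.965 and 0.959 (n = 35 genes).

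H/ACA snoRNAs are released from host transcripts, so each member was set beside the gene that contains it on the same strand. A host that is no member was found for 38 members, in 33 distinct genes. Snora17, Snora57 and the 139 nt record of Snora43 had no such gene, and Snora57 lies antisense to Lbhd1. Ribosomal protein genes held 11 members, Snhg genes or Dancr 8, and translation factor genes of the Eif and Eef families 4. Snhg12 alone held 4, namely Snora44, Snora61 and both records of Snora16a. In 17 members the overlap was with introns only, and 21 overlapped an exon of some host transcript, in 14 of these an exon of a transcript annotated as retained intron. For 21 members a host transcript held a match of at least 95% identity over at least 90% of the length. These include the 127 nt record of Snora43, for which the containing gene is the 139 nt record. By the same criterion 16 members had a near copy outside the host. Of the 26 members with counts and either kind of shared sequence, 4 had whole-number estimates in every replicate within 0.005, against 9 of 10 with neither. Unspliced host RNA and the mature snoRNA cannot be told apart in these counts.

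Members exceeded their hosts in some genes and lay far below them in others. In CPM per kb of annotated length, 15 of 32 detected members with a host were denser than the host, 13 of them in every replicate, while another 15 were less dense in every replicate. The median ratio was 0.419 over the 31 members whose host had more than 3 counts. When the 19 members whose sequence is in a host transcript were left out, 4 of 13 were denser, and in TPM the count was 23 of 32.

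Among members whose host had more than 3 counts, the highest ratios belonged to the Snora73 genes. They lie in introns of Rcc1, which encodes the exchange factor of the GTPase Ran. Rcc1 had 41.4 ± 2.14 CPM per kb (SD, n = 3) and the overlapping non-coding gene Snhg3 63.1 ± 8.97, against 3288 for Snora73a, a ratio to Rcc1 of 79.4. Snora74a, in introns of Gm28285 (36.9 ± 12.2 CPM per kb), had a ratio of 20, and a second containing gene, AC121821.1, had 77.9 ± 6.02. Snora23 lies in an intron of Ipo7, a nuclear import receptor gene at 135 ± 1.13 CPM per kb, and was 16.02 times as dense. Ipo7 had 632, 625 and 622 CPM in replicates 1, 2 and 3, while Snora23 varied from 320 to 444 CPM. Snora81 was 1.98 times as dense as Eif4a2, a translation initiation helicase gene (711 ± 79.4 CPM per kb). Transcripts of Eif4a2 and AC121821.1 hold the sequences of Snora81 and Snora74a, so these values depend on how the estimator divided shared reads.

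Members in ribosomal protein genes mostly lay below their hosts. Of 11, 2 were denser by the mean, Snora52 (1.75 times Rplp2) and Snora3 (1.35 times Rpl27a), and the median ratio was 0.0954. Snora52 was denser in every replicate, while Snora3 lay below Rpl27a in replicate 2. A transcript of each of these 2 hosts holds the sequence, so both ratios depend on how the estimator divided shared reads. The hosts had a median of 358 TPM. Snora62 had 45.6 ± 24.7 CPM per kb and Rpsa 2997 ± 360, a ratio of 0.0152. Snora65 was at 0.866 of Rpl12 and Snora7a at 0.0954 of Rpl32. The lowest ratio was that of Snora69 to Rpl39, 0.0136.

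Of the 6 detected members in Snhg genes or Dancr whose host had more than 3 counts in every replicate, 5 were denser than the host in every replicate. The median ratio over the 6 was 2.85. A transcript of the host holds the sequence of each of these 6, so their values depend on how the estimator divided shared reads. The exception was the 136 nt record of Snora16a, with 36.2, 42.1 and 70.9 CPM per kb against 38.4, 43.3 and 36.1 for Snhg12. Its mean ratio of 1.27 thus came from replicate 3, and it lay slightly below the host in replicates 1 and 2. Snora44 had 331 ± 127 CPM per kb and Snhg12 39.3 ± 3.69, a ratio of 8.42. The median CPM of members was 12.5 in ribosomal protein hosts and 13.4 in these 6, at host medians of 358 and 15.9 TPM. Snora78 lies in Snhg9, which had 1, 0 and 1 counts and gives no fold, and Snora78 is antisense to the ribosomal protein gene Rps2. Over 32 members the rank correlation between the CPM per kb of member and host was -0.058.

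**Figure D5:**
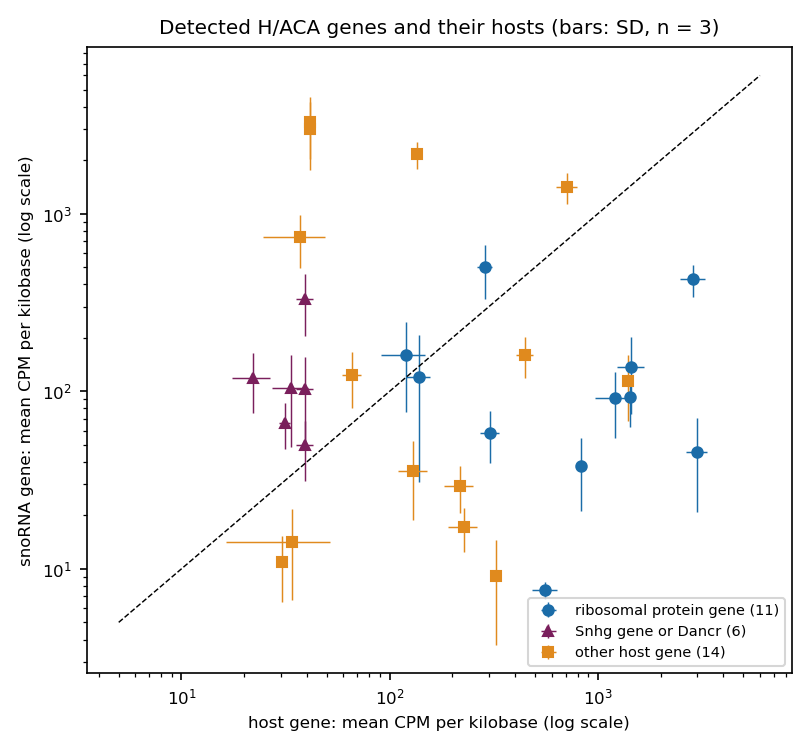
CPM per kb of annotated length of each detected H/ACA box gene (vertical, log axis) against that of its host gene (horizontal, log axis), as means over 3 replicates with bars of 1 SD for 31 members, with the line of equal values. Members in ribosomal protein genes lie mostly below the line at the right, the means of the members plotted in Snhg genes or Dancr lie above it, and Snora73a and Snora73b in Rcc1 are the farthest above.

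The hosts deviated less than the members in replicate 3. Among the 27 members tested whose host was also tested, the median log2 deviation in replicate 3 was 0.69, and in their 24 hosts it was 0.20, with a range of -0.16 to 0.47. In 26 of 27 cases the member lay above its host.

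The proteins that form H/ACA particles were all expressed. The 4 core genes were above 1 TPM in each replicate. Dkc1, the pseudouridine synthase dyskerin, had 61.1, 47.0 and 53.1 TPM, and Nop10 and Nhp2, which bind beside it, had means of 34.9 ± 4.15 and 51.9 ± 2.26 TPM (SD, n = 3). Gar1, which joins the mature particle, had 22.8, 16.7 and 11.0 TPM, lowest in replicate 3. The median log2 deviation of the 4 genes in replicate 3 was 0.23.

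The 10 genes of assembly and localisation all exceeded 1 TPM, from 2.43 for the chaperone adaptor Rpap3 to 40.4 for the ATPase Ruvbl2. Their median log2 deviation in replicate 3 was 0.15. The 6 genes of RNA end trimming and lariat release ran from 4.97 TPM for the debranching enzyme Dbr1 to 15.9 for the exosome nuclease Dis3. The 4 core proteins of C/D particles ran from 36.2 TPM for the methyltransferase Fbl to 146 for Nop56. Of 12 pseudouridine synthases that act without a guide RNA, 11 had a mean of at least 1 TPM, from 0.69 for Pus7l to 12.5 for Trub2. In these 5 lists 0 of 36 genes were called as varying between replicates by edgeR (1.84% of all genes tested). An unadjusted p under 0.05 was found in 0 of 36 (6.96% of all genes tested). For a list of this size, 0 called is near the share over all genes.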

How the data were processed

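The 3 RNA-seq replicates of E14 cells were analysed. Per the labels' protocols, Trizol-extracted total RNA was cleared of DNA and of ribosomal RNA before directional library preparation. Per the submitters' processing notes, the tools included STAR, Bowtie2, SAMtools, RSEM and deepTools and the build was mm10. Versions, annotation release and strand setting are not given in the sources used here.

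Per the file headers, the authors deposited for each gene an expected count, an estimate that divides shared reads among genes, without normalization. The authors also deposited TPM, scaled by effective length. FPKM was not used. Symbols, types, coordinates and transcript sequences came from GENCODE vM21 (GRCm38), which matched 55227 of 55487 genes, and unmatched genes held 0.018% of counts.

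CPM is the expected count scaled to a common library total. It was the main unit because the genes are short. Counts were rounded for edgeR 4.0.16 (R 4.3.3), with TMM, filterByExpr, an intercept-only fit with trended dispersion and the goodness-of-fit test, adjusted over all genes. Deviations used a prior count of 0.5. The procedure was tested on simulated data. A host was the longest gene on the same strand that contains the member. Near copies were found with blastn 2.17.0. Other values used Python 3.11.15, pandas 2.3.3 and scipy 1.17.1. Alternatives were DESeq2 1.42.0 size factors, other filters, a length correction, common dispersion, TPM, other hosts and leaving out each replicate.

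Named members are the 15 of highest mean CPM, those called as varying, lettered families with a member of at least 10 CPM and the 5 lowest detected, with hosts of the first. Lists were the H/ACA core, assembly, end processing, C/D core, pseudouridine synthases, related RNAs and cell type markers, with Papd5 matched as Tent4b. Members and lists were chosen with earlier results of these data known. The value of 1 host gene is not reported here.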

Additional observations from a re-analysis of the deposited data

How the results depend on the processing

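Of 42 alternatives over 6 results, 6 of them chosen after seeing the data, 31 left the result on its side, 10 moved it and 1 reversed it. Some of the 31 could not have come out otherwise. A pseudocount of 0.1 CPM per kb was added to member and host alike, which cannot change which is denser. The log2 ratio to C/D box genes was positive in each replicate, so leaving out a replicate could not turn its sign. With TPM in place of CPM the share of the library was 2.46%, the log2 ratio to C/D box genes was -0.34, which reversed it, and 23 members were denser than the host. Without the 5 members over 150 nt the share was 0.0493%. The log2 ratio to C/D box genes was then 0.077 ± 0.15 (SD, n = 3), and it was negative in replicate 3. That ratio was counted as on its side by the sign of its mean alone. The number of members varying between replicates was 5 of 36 without a filter, 0 with the length correction and 0 to 4 when a replicate was left out. The median deviation in replicate 3 was 0.064 with the length correction. Leaving out members whose sequence is in a host transcript gave 4 denser than the host. The cause of these changes was not tested, beyond what each alternative removes by its construction. The deviation in replicate 3 has no value without replicate 3. No paired analysis was possible because there was 1 RNA-seq group. Depth limits the lowest members, which rest on 6 to 25 counts, and 3 replicates cannot give an exact p under 0.25.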

Other observations

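The related RNAs of the Cajal body and telomerase were read from the same tables. The list held 9 Scarna genes and Terc, the telomerase RNA that carries an H/ACA domain. Scarna genes encode small Cajal body RNAs, of which some are of the C/D or mixed kind. Of the list 5 of 10 were detected, against 26.3% of all genes. Scarna2 had 115, 156 and 238 CPM and Scarna10 had 132, 162 and 171 CPM, the highest of the list. Both were highest in replicate 3. Terc had 34.6 estimated counts in replicate 1, 0 in replicate 2 and 46.6 in replicate 3, so it was not detected by the criterion used for the snoRNAs. By edgeR's goodness-of-fit test 0 of 5 were called as varying between replicates (1.84% of all genes tested). An unadjusted p under 0.05 was found in 4 of 5 (6.96% of all genes tested). With 5 genes, 0 called is near the share over all genes. Their median log2 deviation in replicate 3 was 0.64.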
